A study of Arabidopsis thaliana with 12 samples.

Results

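Root hairs are tubular outgrowths of single epidermal cells of the root, and they grow at their tip. Basic helix-loop-helix (bHLH) transcription factors start the outgrowth and drive its elongation, wall proteins such as expansins, proline-rich proteins and extensins build and loosen the new wall, and phospholipid signalling together with reactive oxygen species keeps growth at the tip. The 10 root hair genes described here were RHD6, RSL2, RSL4, EXPA7, EXPA18, PRP1, PRP3, LRX1, COW1 and RHD2. They were chosen by name, through the locus to which a probe of the array maps, and are 10 of the 25405 loci with a probe.

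The arrays measured RNA of whole 10-day-old Arabidopsis seedlings of the Landsberg erecta background, with 3 biological repeats in each of 4 groups. The groups were proatcape1 in 125 mM NaCl for 12 h, WT in 125 mM NaCl for 12 h, proatcape1 in medium alone at 0 h and WT in medium alone at 0 h. The mutant proatcape1 is 1 T-DNA insertion line of PROAtCAPE1 (AT4G33730), a gene for the precursor of the peptide AtCAPE1, and no second allele was on the arrays. The question was how salt changes gene expression in WT and in the mutant. The salt groups were collected at 12 h and the medium alone groups at 0 h, so salt and hours cannot be told apart, and each salt effect below holds both.

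Values are the background-corrected signal of a probe as a percentage of the 75th percentile of its own array, and they compare a probe between arrays, not 1 gene with another. Between 71.6% and 78.6% of probes were well above background on an array, and the 75th percentile of the signal lay between 1800 and 2392. All 10 root hair genes were well above background on all 12 arrays. All 10 passed the filter on dim probes, which left 19027 genes to test. That filter asks for a signal over 100 in only 1 of the 4 groups, so a gene could pass through its control arrays. LRX1, RSL2 and EXPA7 did so. LRX1 had all of its salt arrays under 100 in both genotypes, and RSL2 and EXPA7 had at least 1 salt array under 100 in each genotype. Without the filter, 9 of the 10 genes still passed the test for a change with salt in proatcape1. That fit used the same probe values, so it does not remove this limit. PROAtCAPE1 itself had a signal of 0.186%, 0.344% and 0.165% in salt-treated proatcape1, against 2.49%, 2.01% and 2.24% in salt-treated WT. In medium alone it had 0.25%, 0.183% and 0.163% in proatcape1, against 27.4%, 36.4% and 28.6% in WT. The probe was not well above background on any of the 6 proatcape1 arrays, and WT was at least 2.31-fold higher under salt and at least 34.8-fold higher in medium alone. These bounds set the mean of WT against the lowest signal that counted as well above background. Whether the probe lies in the interrupted part of the gene was not tested.

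Salt-treated seedlings had less RNA of nearly all of these genes in both genotypes. In proatcape1, 9 of the 10 genes passed the test as lower under salt, where 26.2% of all genes tested did. In WT, 8 of the 10 passed as lower, where 21.8% of all genes tested did. None of the 10 passed as higher, against 19.6% of all genes in proatcape1 and 17.5% in WT. A gene passed at a limma adjusted p of at most 0.05 (Benjamini-Hochberg over all 19027 genes) and a change over 1.5-fold. The median log2 change of the 10 genes was -1.80 in proatcape1 and -1.78 in WT, and that of all genes tested was -0.13 in proatcape1 and -0.11 in WT. In proatcape1, 9 of the 10 genes had every salt array below every control array, where 49.8% of all genes did, and RHD2 had every salt array above, where 35% of all genes did. In WT, 8 of the 10 had every salt array below, where 48.2% of all genes did, and 0 had every salt array above, where 32.8% of all genes did. Whole seedlings were measured, so fewer root hair cells and less RNA per cell cannot be told apart.

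**Figure D1:**
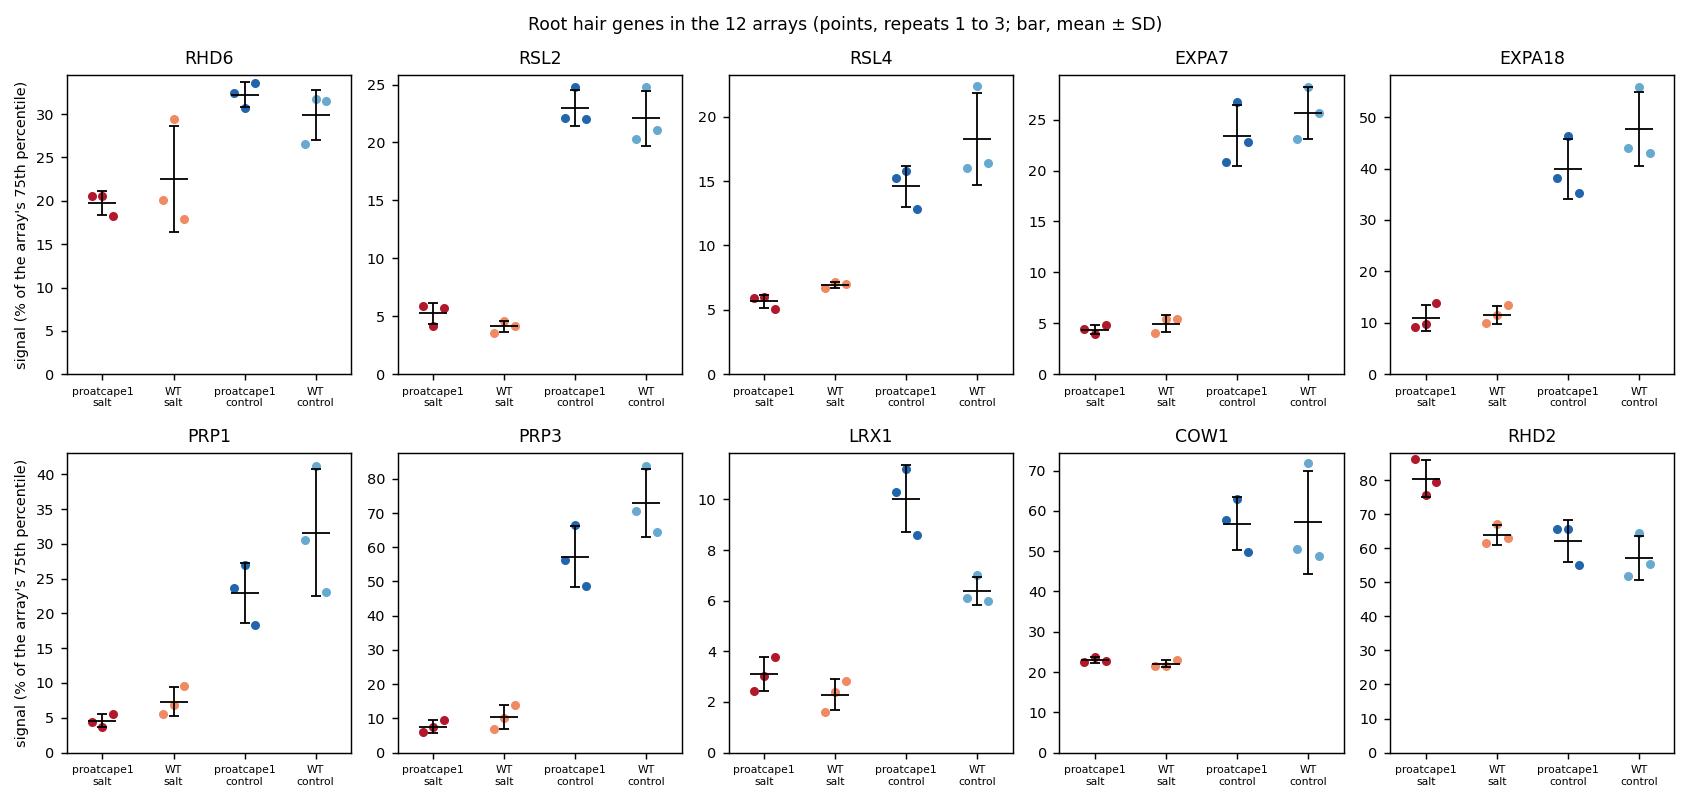
Signal of the 10 root hair genes in each of the 12 arrays, as a percentage of the array's 75th percentile on a linear axis from 0, with the 2 salt groups left of the 2 control groups. Points are repeats 1 to 3 and bars are mean ± SD; RSL2, for example, averaged 5.25% in salt-treated proatcape1, 4.13% in salt-treated WT, 23.0% in proatcape1 control and 22.1% in WT control, while RHD2 stayed between 51.9% and 86.3%.

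Among the bHLH regulators, RHD6 acts first, in the cells that will form a hair, and of the 3 regulators among the 10 genes it had the smallest decrease. RHD6 (AT1G66470) had 20.5%, 20.6% and 18.2% in salt-treated proatcape1, against 32.4%, 30.7% and 33.6% in proatcape1 in medium alone. All salt-treated proatcape1 arrays lay below the control arrays, and RHD6 fell by 0.71 on the log2 scale (SE 0.15, limma adjusted p = 0.00126). In WT it had 20.1%, 29.4% and 17.9% under salt, against 26.6%, 31.7% and 31.5% in medium alone. Repeat 2 of salt-treated WT reached the control range, so the groups overlapped. The log2 change in WT was -0.45 (SE 0.15, limma adjusted p = 0.02), which is under the fold limit. Without that salt-treated array the log2 change in WT was -0.66 with a limma adjusted p of 0.000109, and RHD6 passed. Over all arrays, the salt effects of the 2 genotypes on RHD6 differed by -0.26 (95% interval -0.74 to 0.22), which did not pass.

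RSL2 and RSL4 act downstream of RHD6, and RSL4 in particular sets how long a hair grows. RSL2 (AT4G33880) had 5.89%, 4.17% and 5.68% in salt-treated proatcape1, against 22.1%, 24.8% and 22.0% in proatcape1 in medium alone. It had 3.60%, 4.58% and 4.20% in salt-treated WT, against 20.3%, 24.8% and 21.1% in WT in medium alone. The salt and control arrays were far apart in both genotypes, and the salt arrays overlapped between the genotypes. The log2 change was -2.15 in proatcape1 (SE 0.14, limma adjusted p = 8.16e-08) and -2.42 in WT (SE 0.14, limma adjusted p = 4.82e-08). With normexp background correction, run on the median spot signal with an offset of 50, the change in WT was -1.79.

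RSL4 (AT1G27740) had 5.90%, 5.98% and 5.09% in salt-treated proatcape1, against 15.2%, 15.8% and 12.8% in proatcape1 in medium alone. It had 6.70%, 7.13% and 6.97% in salt-treated WT, against 16.0%, 22.4% and 16.4% in WT in medium alone. Every salt array was below every control array, and every proatcape1 array was below every WT array of the same treatment. The log2 change with salt was -1.36 in proatcape1 (SE 0.13, limma adjusted p = 1.71e-06) and -1.38 in WT (SE 0.13, limma adjusted p = 2.04e-06).

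Of 6 further bHLH regulators of root hair growth, 4 were tested, and RSL3 and RSL5 did not pass the filter on dim probes. RSL1, which acts beside RHD6, fell, with log2 changes of -1.29 in proatcape1 and -0.99 in WT. LRL3 fell, with changes of -1.54 in proatcape1 and -1.74 in WT. LRL1, a close relative of LRL3, rose by 1.17 in proatcape1 and by 1.19 in WT. LRL2 had log2 changes of -0.30 in proatcape1 and -0.26 in WT and did not pass.

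The wall proteins of the hair included the largest decrease, that of PRP3. EXPA7 and EXPA18 are alpha-expansins, which loosen the wall at the site of outgrowth. EXPA7 (AT1G12560) had 4.43%, 3.92% and 4.83% in salt-treated proatcape1, against 20.8%, 26.7% and 22.8% in proatcape1 in medium alone. It had 4.03%, 5.43% and 5.44% in salt-treated WT, against 23.1%, 28.2% and 25.7% in WT in medium alone. Salt and control arrays did not overlap, and the genotypes overlapped within each treatment. EXPA7 changed by -2.41 in proatcape1 (SE 0.14, limma adjusted p = 3.47e-08) and by -2.38 in WT (SE 0.14, limma adjusted p = 5.58e-08) on the log2 scale. With normexp the change in proatcape1 was -1.78.

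EXPA18 (AT1G62980) had 9.09%, 9.75% and 13.8% in salt-treated proatcape1, against 38.1%, 46.4% and 35.2% in proatcape1 in medium alone. It had 9.89%, 11.5% and 13.4% in salt-treated WT, against 44%, 55.9% and 43.1% in WT in medium alone. As for EXPA7, every salt array lay below every control array, and the genotypes overlapped within each treatment. The log2 change was -1.89 in proatcape1 (SE 0.18, limma adjusted p = 1.81e-06) and -2.04 in WT (SE 0.18, limma adjusted p = 1.32e-06).

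PRP1 and PRP3 are proline-rich structural proteins of the cell wall, and PRP3 is known from hair-forming cells. PRP3 (AT3G62680) had 5.89%, 7.37% and 9.54% in salt-treated proatcape1, against 56.2%, 66.6% and 48.8% in proatcape1 in medium alone. It had 7.0%, 10.1% and 13.9% in salt-treated WT, against 70.5%, 83.7% and 64.4% in WT in medium alone. The salt arrays of both genotypes lay far below every control array. PRP3 had the largest change of the 10 genes, -2.93 in proatcape1 (SE 0.24, limma adjusted p = 6.6e-07) and -2.87 in WT (SE 0.24, limma adjusted p = 1.07e-06), and 0.825% of genes in proatcape1 and 0.794% in WT were as low or lower. A second PRP3 probe was dim, between 0.274% and 1.21%, and was not used.

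PRP1 (AT1G54970) had 4.45%, 3.70% and 5.53% in salt-treated proatcape1, against 23.6%, 26.9% and 18.4% in proatcape1 in medium alone. It had 5.55%, 6.90% and 9.54% in salt-treated WT, against 30.5%, 41.2% and 23.1% in WT in medium alone. Salt and control arrays were apart in both genotypes, and under salt every proatcape1 array was below every WT array. The log2 change with salt was -2.33 in proatcape1 (SE 0.25, limma adjusted p = 5.92e-06) and -2.10 in WT (SE 0.25, limma adjusted p = 1.71e-05). With normexp the change in proatcape1 was -1.65.

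LRX1 is a leucine-rich repeat extensin, a wall protein needed for regular hair shape. LRX1 (AT1G12040) had 2.45%, 3.04% and 3.78% in salt-treated proatcape1, against 10.3%, 11.2% and 8.59% in proatcape1 in medium alone. It had 1.61%, 2.40% and 2.82% in salt-treated WT, against 6.12%, 7.03% and 6.00% in WT in medium alone. Salt arrays lay below control arrays in both genotypes, and in medium alone every proatcape1 array lay above every WT array. The log2 change with salt was -1.71 in proatcape1 (SE 0.21, limma adjusted p = 1.47e-05) and -1.52 in WT (SE 0.21, limma adjusted p = 4.5e-05). With normexp the changes were -1.03 in proatcape1 and -0.84 in WT.

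The last 2 genes act at the membrane of the growing tip. COW1 (AT4G34580) encodes a phosphatidylinositol transfer protein. It had 22.4%, 23.8% and 22.7% in salt-treated proatcape1, against 57.7%, 62.9% and 49.9% in proatcape1 in medium alone. It had 21.6%, 21.6% and 23.0% in salt-treated WT, against 50.6%, 71.9% and 48.9% in WT in medium alone. The 6 salt arrays lay close together whatever the genotype. COW1 changed by -1.30 in proatcape1 (SE 0.13, limma adjusted p = 3.42e-06) and by -1.35 in WT (SE 0.13, limma adjusted p = 3.3e-06) on the log2 scale.

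RHD2 (AT5G51060), the NADPH oxidase RBOHC that makes reactive oxygen species at the hair tip, was the exception. It had 86.3%, 75.7% and 79.6% in salt-treated proatcape1, against 65.8%, 65.7% and 55.1% in proatcape1 in medium alone. It had 61.6%, 67.3% and 63.1% in salt-treated WT, against 51.9%, 64.4% and 55.3% in WT in medium alone. The salt-treated proatcape1 arrays were the 3 highest of the 12, and the WT groups overlapped. The log2 change was 0.38 in proatcape1 (SE 0.09, limma adjusted p = 0.0031) and 0.17 in WT (SE 0.09, limma adjusted p = 0.123), both under the fold limit.

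**Figure D2:**
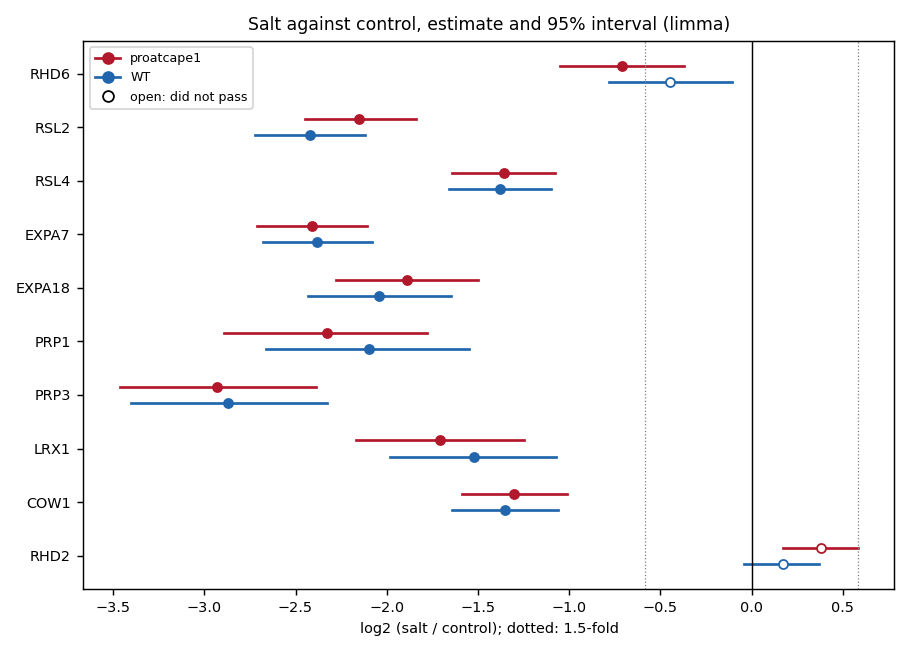
Log2 change with salt of each root hair gene in proatcape1 (red) and WT (blue), with 95% intervals from limma; filled points passed, open points did not, and dotted lines mark 1.5-fold. The changes ran from -2.93 for PRP3 to 0.38 for RHD2, and only the interval of RHD2 lay above 0, in proatcape1.

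Each slide held 1 array of every group, and the decreases were seen within every slide. The median change of the 10 genes was -1.99, -2.07 and -1.34 on slides 1, 2 and 3 in proatcape1 and -2.04, -2.01 and -1.25 in WT, with 9 of 10 genes lower on each slide in both genotypes. Slide 3, which was scanned on another day than slides 1 and 2, thus had the smallest median change in both genotypes. PRP1 changed by -2.41, -2.86 and -1.73 in proatcape1 and by -2.46, -2.58 and -1.28 in WT on the 3 slides. LRX1 changed by -2.07, -1.89 and -1.18 in proatcape1 and by -1.93, -1.55 and -1.09 in WT.

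For all of these genes but RHD2, the difference between proatcape1 and WT was smaller than the salt effect in either genotype. Under salt, 0 of the 10 genes passed, where 4.65% of all genes did in either direction. By limma, 5 of the 10 had an unadjusted p under 0.05, as 45.2% of all genes did. In medium alone, 0 of the 10 passed, where 2.12% of all genes did, and 2 of the 10 had an unadjusted p under 0.05, as 20% of all genes did. The median log2 difference of the 10 genes was -0.13 under salt and -0.06 in medium alone. The genotype and salt comparisons share arrays. Under salt the endodermis and cortex markers CASP5 (log2 difference -1.77, limma adjusted p = 0.00461) and CO2 (-0.60, limma adjusted p = 0.00146) were also lower in proatcape1, and their part in the differences below was not tested.

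PRP1 was the 1 gene beyond the fold limit under salt, with a log2 difference of -0.67 (95% interval -1.23 to -0.11, limma adjusted p = 0.0634). The values on slides 1, 2 and 3 were -0.32, -0.90 and -0.79. With the replicate number as a block and the salt arrays alone the adjusted p of PRP1 was 0.0181, and with the block over all 12 arrays it was 0.0901. Without repeat 1 of salt-treated WT, PRP1 (-0.85, adjusted p = 0.0331) and PRP3 (-0.67, adjusted p = 0.0398) passed by limma, and without repeat 2 of WT in medium alone PRP1 passed with an adjusted p of 0.0449. In medium alone the log2 difference of PRP1 was -0.44 (95% interval -1.0 to 0.12).

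LRX1 ran the other way. Its log2 difference was 0.46 under salt (95% interval 0.00 to 0.92, limma adjusted p = 0.11) and 0.65 in medium alone (95% interval 0.19 to 1.1, limma adjusted p = 0.103). On slides 1, 2 and 3 it was 0.61, 0.34 and 0.42 under salt and 0.75, 0.68 and 0.52 in medium alone. With the control arrays alone in the limma fit the adjusted p in medium alone was 0.0414, with the replicate block in that fit it was 0.0293, and without repeat 1 of salt-treated WT it was 0.0453.

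RHD2 differed by 0.33 under salt (95% interval 0.12 to 0.54, limma adjusted p = 0.0212), under the fold limit, and by 0.12 in medium alone (95% interval -0.08 to 0.33). RSL4 differed by -0.30 under salt (95% interval -0.58 to -0.02) and by -0.31 in medium alone (95% interval -0.59 to -0.03), and neither passed. RSL2 differed by 0.34 under salt (95% interval 0.04 to 0.64), with -0.13 as the lowest and 0.71 as the highest value on a slide. RSL2 lies on chromosome 4 as PROAtCAPE1 does, with 18 annotated genes between them in TAIR10.1, and COW1 has 121 between. The intervals of COW1 were -0.23 to 0.35 under salt and -0.28 to 0.30 in medium alone.

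In both treatments the proatcape1 and WT arrays overlapped for most of these genes. Under salt, 2 genes (RSL4 and PRP1) had every proatcape1 array below every WT array, where 26.3% of all genes did, and RHD2 had every proatcape1 array above, where 22.5% did. In medium alone RSL4 was the 1 gene below, where 11.6% of all genes were, and LRX1 the 1 gene above, where 14.4% were.

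The salt effect itself was compared between the genotypes by the interaction term (that of proatcape1 less that of WT). None of the 10 genes passed, where 2.56% of all genes did, and 0 of the 10 had an unadjusted p under 0.05 by limma, where 27.3% of all genes did. The differences ran from -0.26 for RHD6 to 0.28 for RSL2 (95% interval -0.15 to 0.70). The widest intervals were those of PRP1, -1.02 to 0.56, and PRP3, -0.82 to 0.70.

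**Figure D3:**
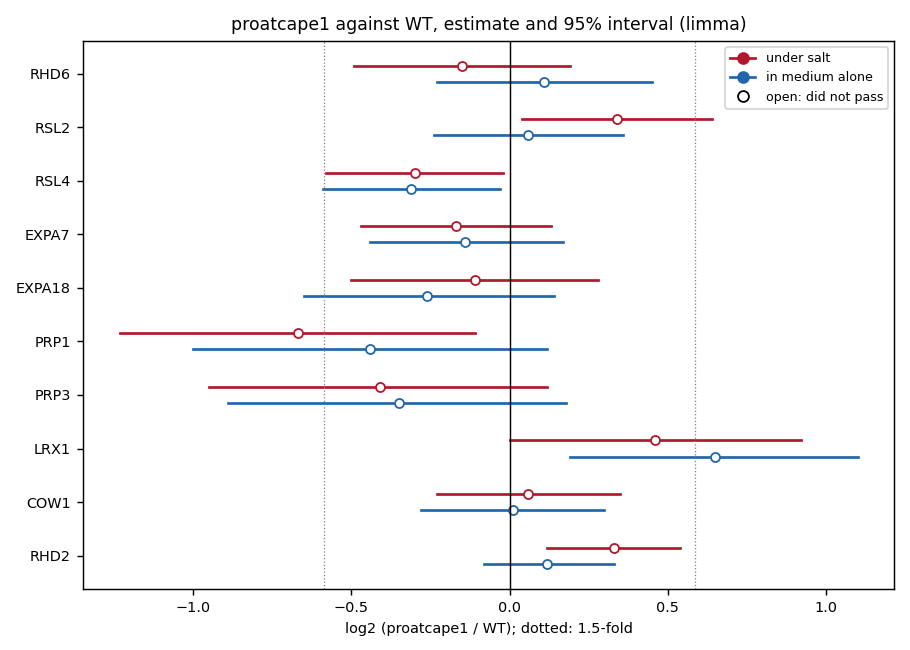
Log2 difference of proatcape1 over WT for each root hair gene, under salt (red) and in medium alone (blue), with 95% intervals from limma; all points are open because none passed, and dotted lines mark 1.5-fold. PRP1 (-0.67 under salt) and LRX1 (0.65 in medium alone) lay beyond the dotted lines.

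On some arrays most of these genes differed together from their group means, and on others they did not. In salt-treated proatcape1, 5, 3 and 6 of the 10 genes lay above their group mean in repeats 1, 2 and 3. In repeat 2 of WT in medium alone, all 10 genes lay above their group mean, by a median of 0.19 on the log2 scale, and the root endodermis and cortex markers lay 0.22 above theirs. In repeat 1 of salt-treated WT, 0 of the 10 lay above, with a median of -0.20, and the same markers had -0.11. The median deviation of all genes on these 2 arrays was 0.006 and -0.011. After group means were removed, the 12 arrays gave a Pearson r of 0.98 between PRP3 and LRX1. It was 0.91 between EXPA18 and PRP3 and 0.91 between RSL4 and COW1. These were the highest of all pairs, and the lowest was -0.30, between RHD6 and PRP1. RHD2, which did not fall with salt, still had an r of 0.77 with the mean deviation of the 10 genes, its own included. RHD6 had 0.14. These values share arrays and slides and are descriptions.

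A wider list of 31 root hair genes for the wall, growth and signalling showed a mixed picture, with 29 tested. In proatcape1, 15 passed as lower, where 26.2% of all genes did, and 1 as higher, where 19.6% did. In WT, 17 passed as lower, where 21.8% of all genes did, and 1 as higher, where 17.5% did. The median log2 change was -0.79 in proatcape1 and -0.92 in WT. RHS19, a peroxidase, fell, with changes of -2.63 in proatcape1 and -2.71 in WT. RHS18, another peroxidase, fell, with changes of -2.62 in proatcape1 and -2.82 in WT. The 1 gene that rose was OXI1, a protein kinase activated by reactive oxygen species, by 3.66 in proatcape1 and by 3.08 in WT. Among genes that did not pass were MRH2 (-0.64) and RHS8 (-0.56) in proatcape1 and BST1 (-0.41) and FER (-0.39) in WT. Between the genotypes, 1 of the 29 passed under salt, where 4.65% of all genes did. It was the receptor-like kinase ERU (log2 difference -0.96, limma adjusted p = 0.0033). In medium alone and in the interaction 0 passed, where 2.12% and 2.56% of all genes did. An unadjusted p under 0.05 by limma was found for 6 of the 29 under salt, where 45.2% of all genes had one. In medium alone it was found for 4, against 20% of all genes, and in the interaction for 2, against 27.3%.

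Genes that place hair and non-hair cells in the epidermis were tested for 12 of 13. TRY, an inhibitor of the non-hair fate, rose by 1.78 in proatcape1 and by 1.53 in WT. ZFP5, a zinc finger activator of hair initiation, rose by 1.39 in proatcape1 and by 1.12 in WT. With ETC1 and TTG2, 4 genes rose in each genotype, where 19.6% of all genes did in proatcape1 and 17.5% in WT. As lower, 26.2% of all genes passed in proatcape1 and 21.8% in WT. In proatcape1, 4 genes fell, GL2 (-0.65), WER (-0.70), EGL3 (-0.81) and SCM (-0.85), and in WT their log2 changes were -0.28, -0.38, -0.28 and -0.40 and did not pass. ETC1, TTG2, EGL3 and SCM were named after their values were seen. GL2 and WER were listed as markers of non-hair cells of the root epidermis. In whole seedlings their signal cannot be assigned to those cells. Their summed signal was 47.2% to 58.9% in salt-treated proatcape1 and 49.1% to 83.3% in salt-treated WT. In medium alone it was 80.2% to 85.8% in proatcape1 and 69.5% to 85.7% in WT. In this and the sums below, brighter probes weigh more. In the interaction 0 of the 12 passed, and 3 had an unadjusted p under 0.05 by limma, where 27.3% of all genes did. SCM (-0.45, limma adjusted p = 0.0234) met the limit on the adjusted p but not the fold limit. EGL3 (-0.54, limma adjusted p = 0.0533) met neither. JKD (-0.57 in proatcape1 and -0.43 in WT) and CPC (0.37 in proatcape1 and 0.45 in WT) did not pass. TRY was higher in proatcape1 than in WT under salt, by 0.60 (limma adjusted p = 0.0238).

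Of 10 hormone and trihelix regulators upstream of RHD6 and RSL4, 3 fell and 1 rose in proatcape1, where 26.2% of all genes fell and 19.6% rose. In WT 2 fell and 1 rose, where 21.8% of all genes fell and 17.5% rose. These counts are not far from the shares of all genes, and the median log2 change of the list was -0.04 in proatcape1 and 0.02 in WT. AUX1, the auxin influx carrier, fell, with changes of -1.27 in proatcape1 and -1.1 in WT. GTL1, a trihelix repressor of RSL4, fell, with changes of -1.17 in proatcape1 and -0.85 in WT. DF1, its relative, fell by 0.69 in proatcape1 and had -0.38 in WT, which did not pass. OBP4, a DOF repressor of RSL2, rose by 1.14 in proatcape1 and by 0.84 in WT. DF1 and OBP4 were named after their values were seen.

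The relatives of the root hair genes moved in both directions. Over all genes tested, 26.2% passed as lower and 19.6% as higher in proatcape1, and 21.8% and 17.5% in WT. Of 14 other alpha-expansins, 7 fell and 3 rose in each genotype. EXPA8 fell, with changes of -3.45 in proatcape1 and -3.20 in WT, and EXPA10 rose by 1.97 in proatcape1 and by 2.82 in WT. EXPA16 rose by 3.51 in proatcape1 and by 2.22 in WT. Of 7 NADPH oxidases tested besides RHD2, 3 rose and 2 fell in each genotype. RBOHG fell, with changes of -1.97 in proatcape1 and -2.57 in WT, and RBOHE rose by 0.92 in proatcape1 and by 0.97 in WT. Among leucine-rich repeat extensins, LRX6 fell, with changes of -2.10 in proatcape1 and -2.32 in WT, and LRX3 had -0.96 in proatcape1 and -0.81 in WT and also fell. Between the genotypes under salt, EXPA10 was lower in proatcape1 by a log2 difference of -0.75 and RBOHG higher by 0.84, and the interaction passed for EXPA3 (-0.86) and EXPA10 (-0.85). PRP4 fell, with changes of -0.95 in proatcape1 and -0.76 in WT, and PRP2 had 0.27 in proatcape1 and 0.38 in WT and did not pass.

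Markers of other root cells also moved with salt, and their part in the decreases was not tested. Over all genes tested, 26.2% passed as lower and 19.6% as higher in proatcape1, and 21.8% and 17.5% in WT. Of 9 endodermis and cortex markers, 6 fell in each genotype. CASP5, a Casparian strip protein, fell, with changes of -2.64 in proatcape1 and -1.64 in WT, and CASP1, its relative, fell, with changes of -1.85 in proatcape1 and -1.83 in WT. SCR and MYB36, regulators of the endodermis, had 0.26 and 0.10 in proatcape1 and 0.37 and 0.14 in WT and did not pass. The summed signal of the 9 markers was 379% to 417% in salt-treated proatcape1, 391% to 463% in salt-treated WT, 769% to 868% in proatcape1 in medium alone and 697% to 902% in WT in medium alone. Of 4 stele markers, 0 passed as lower in either genotype, and SUC2 passed as higher, by 1.02 in proatcape1 and by 0.73 in WT. SHR (-0.42 in proatcape1 and -0.32 in WT) and PHO1 (-0.38 in proatcape1 and -0.57 in WT) were lower but under the fold limit. Their limma adjusted p values were 8.73e-05 and 0.00469 in proatcape1 and 0.000839 and 0.000362 in WT. Of the 4 markers, 2 had a negative change with an unadjusted p under 0.05 in each genotype. That threshold was met in either direction by 83.4% of all genes in proatcape1 and by 79.9% in WT. Of 6 root cap and meristem markers tested, 4 fell and WOX5 rose in each genotype. The root cap and meristem list had a summed signal of 30.2% to 36.1% in salt-treated proatcape1, 38.4% to 44.1% in salt-treated WT, 52.5% to 56.6% in proatcape1 in medium alone and 46.4% to 55.8% in WT in medium alone. Of 4 markers of the shoot epidermis, trichomes and stomata, 2 fell in each genotype. They were SPCH (-1.44 in proatcape1 and -0.90 in WT) and FAMA (-0.82 in proatcape1 and -0.61 in WT), regulators of the stomatal lineage. MUTE had -0.32 in proatcape1 and 0.30 in WT, GL1 had -0.20 in proatcape1 and 0.18 in WT, and neither passed. In the interaction MUTE passed (-0.62, limma adjusted p = 0.0412). Of the 4 green shoot markers 0 passed in either genotype, with changes between -0.16 and 0.54, all under the fold limit. In each genotype 2 of them had an unadjusted p under 0.05. LHCB2.2 rose by 0.54 in proatcape1 (limma adjusted p = 4.87e-06) and by 0.32 in WT (limma adjusted p = 0.000394).

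**Figure D4:**
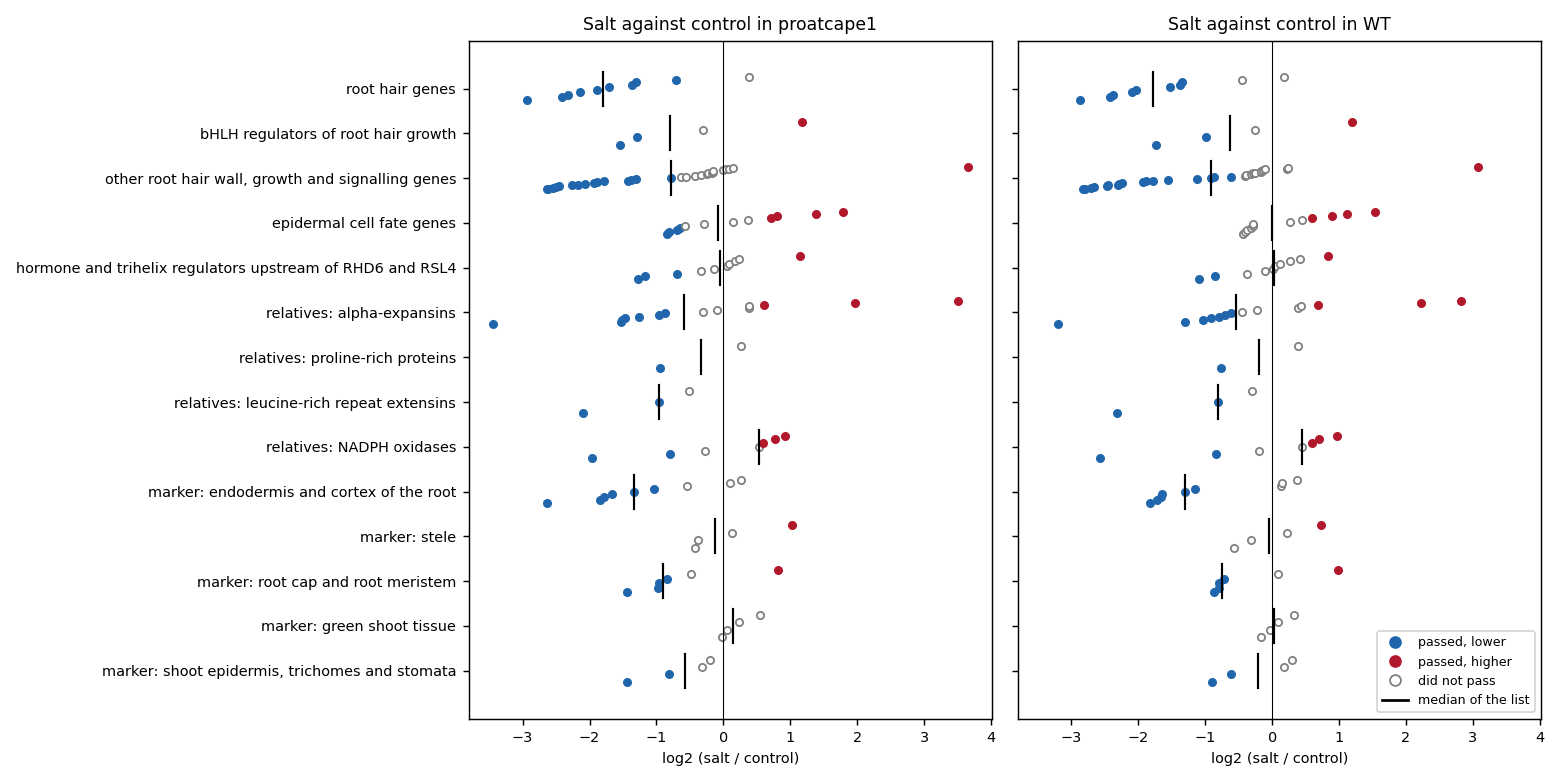
Log2 change with salt of single genes by list, in proatcape1 (left) and WT (right); blue points passed as lower, red as higher, open points did not pass, and the black bar is the list's median. The 10 root hair genes had medians of -1.80 and -1.78, the endodermis and cortex markers lay mostly below 0, and the green shoot markers lay near 0.

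The genes whose signal over the 12 arrays was most like the mean standardized profile of the 10 root hair genes were PER64 (Pearson r 0.998), AT1G30750 (0.997), CASP1 (0.996), CASP2 (0.996), AT4G30170 (0.995), AT1G27110 (0.995), AT3G55230 (0.994), BGLU22 (0.994), AT2G39430 (0.993) and BGLU21 (0.993). CASP1 and CASP2 are among the endodermis markers above. PER64, a peroxidase, fell, with changes of -1.60 in proatcape1 and -1.58 in WT. An r of at least 0.95 was found for 2424 genes, 12.7% of those tested, for 7 of the 10 root hair genes and for 15 of 33 other root hair genes tested, COBL9 (0.990) first. The 10 genes enter the profile themselves. COW1 had the highest r of the 10 (0.990), RHD6 had 0.856 and RHD2 had -0.531.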

How the data were processed

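Each RNA sample was labelled with Cy3 and put on 1 Agilent Arabidopsis array of its own, which the authors read with Feature Extraction 10.7.1.1. The deposited processed signal is a background-corrected intensity on a linear scale. The deposited normalized values are on a log2 scale, and the authors obtained them with GeneSpring, setting WT in medium alone as control. They equalled the scaled log2 processed signal less the median of the WT control arrays, with an SD of the difference of at most 0.00565, and served as an alternative. Here the log2 processed signal was taken relative to each array's 75th percentile, after spots with outlier flags were left out (76 probes lost). A locus was found for 34306 of 43527 probes, and 9221 without one were not tested. A probe was kept with a signal over 100 and a coefficient of variation under 50% on all 3 arrays of at least 1 group, limits that the methods state for the raw signal. The brightest probe stood for a locus. No spot was saturated.

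One limma fit (limma 3.58.1, R 4.3.3; other steps in Python 3.11.15, numpy 2.4.6, pandas 2.3.3, matplotlib 3.10.9) estimated 4 group means over 12 arrays without a block, with Benjamini-Hochberg adjustment. Tested on simulated data for the salt effect in WT over 19027 genes, it found 95 of 100 genes changed 2-fold and 100 of 100 changed 4-fold, with 2 false calls. The repeats are biological repeats according to the labels and methods, and their number limits the precision. The replicate number is also the slide. Deviations of same-numbered salt arrays correlated at 0.31, 0.24 and 0.37 between the genotypes, and those of control arrays at 0.09, 0.21 and 0.30. Between same-numbered salt and control arrays they correlated at 0.12, -0.07 and 0.05 in proatcape1 and at -0.12, -0.2 and -0.11 in WT. A pairing of salt with control arrays was thus not seen. Whether the values between genotypes come from the repeat or the slide cannot be told apart. The numbers served as a block in alternative fits only. The members and lists were chosen with earlier results of these data known. All 10 members were named. A list and comparison could give up to 4 names, with the top 2 by size of change from those passing and from those not passing, beside all bHLH regulators, PROAtCAPE1 and the 10 genes most like the members. Array names of genes were updated through the TAIR10.1 gene table. Coordinates of the scanner files were not used because these files name another build. The order of genes on chromosome 4 came from the positions in the TAIR10.1 gene table. Alternatives covered background correction, scaling, filter, probe choice, arrays in the fit, the block, the authors' values, and each array left out.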

Additional observations from a re-analysis of the deposited data

How the results depend on the processing

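Of 460 alternative values for the salt effects of the 10 genes, 459 kept their sign and their call, and 0 changed sign. The exception was RHD6 in WT, which passed without repeat 2 of salt-treated WT. Many of the 460 values could not differ in size from the main fit, so the count overstates how far the results were tried. The block and the filter settings left each log2 change as it was, and only PRP3 had more than 1 probe. The authors' values were nearly the same scaled signal. Leaving out an array of a group not compared changed only the SE and the p. The 460 values keep the fold limit. Without it 10 genes in place of 9 passed in proatcape1, with RHD2 as higher, and 9 in place of 8 in WT, with RHD6 as lower. Most genes change by so loose a measure. An unadjusted p under 0.05 by limma was found for 83.4% of all genes in proatcape1 and 79.9% in WT, in either direction. The share of all genes at the adjusted p without the fold limit was not counted. Sizes were smaller with normexp, which took the median spot signal in place of the processed signal and added an offset of 50. An offset by itself draws the changes of dim probes nearer 0. The direction of this shift was therefore largely fixed in advance, and the parts of the offset, the signal and the correction were not separated. Under normexp all 20 salt effects were nearer 0, and 5 of them moved by over 1.5-fold, those of EXPA7, PRP1 and LRX1 in proatcape1 and of RSL2 and LRX1 in WT. The number of root hair genes that passed was 0 under salt and became 1 with no fold limit (RHD2) and 1 with the replicate block on the salt arrays alone (PRP1), and between 0 and 2 with each array left out. In medium alone it was 0 and became 1 with the control arrays alone (LRX1), with and without the replicate block, and lay between 0 and 1 with each array left out. The cause was not tested. The block over all 12 arrays changed no call of the 10 genes. The fits with no fold limit, with slides 1 and 2 alone and with the block on the compared groups were chosen after seeing the data.

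Values near 0 that did not pass changed sign. The genotype difference of COW1 in medium alone was -0.00119 on slides 1 and 2 and between -0.0920 and 0.19 with each array left out. Under salt, leaving out each array gave -0.30 to 0.0586 for RHD6 and -0.29 to 0.00984 for EXPA18. The interaction under normexp was 0.12 for EXPA7, 0.0346 for PRP1 and 0.0748 for PRP3, and with each array left out it lay between -0.14 and 0.10 for RSL4, -0.18 and 0.0662 for EXPA7, -0.0352 and 0.27 for EXPA18, -0.31 and 0.18 for PRP3, and -0.13 and 0.15 for COW1.

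Over all genes the counts were less stable. Under salt 884 genes passed between the genotypes, and 514 on slides 1 and 2. In medium alone 404 passed, with 130 on slides 1 and 2, 237 with the replicate block on the control arrays, 269 without repeat 1 and 246 without repeat 3 of the WT controls. In the interaction 487 passed, with 227 without the filter on dim probes, 19 on slides 1 and 2, and 210 to 810 with each array left out. Differences under 1.5-fold were barred by the fold limit, and genes under the filter on dim probes, such as RSL3, were not tested.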
